A study of Homo sapiens with 6 samples.

Results

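SFN and 6 YWHA genes encode the 7 human 14-3-3 proteins, and all 7 were found by symbol among the 34675 genes of a comparison of RNA sequencing in U2932 cells. U2932 is an established line of diffuse large B cell lymphoma. The study infected it with a plasmid for a short hairpin RNA against PRDM11, a PR domain gene regulator (3 samples), or with a scrambled hairpin (3 samples), and selected both with puromycin for 3 days. The values came as means of conditions named only A and B, in normalised reads, that is, read counts divided by a size factor for each library. No header or label says which condition is the knockdown, so each difference is condition A relative to condition B. The authors' deposited table gives PRDM11 287.6 normalised reads under condition A, against 542.1 under condition B. Calling condition A the knockdown would rest on this gene alone, so it was not done. The samples were not stated to be separate cultures, so the spread between libraries may be technical. The family was chosen because the difference of SFN between these conditions was already known, so the differences of the 7 genes are given as a description.

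The 14-3-3 proteins are small acidic adaptors that work as dimers. Each dimer holds a groove per subunit that binds short phosphorylated serine or threonine motifs in other proteins, and so hides, tethers or relocates them. Their partners include CDC25 phosphatases, RAF kinases, FOXO factors, BAD and class IIa histone deacetylases. SFN encodes 14-3-3 sigma, also called stratifin, which is best known from epithelial cells, where it holds cells at the G2 checkpoint after DNA damage, and as a gene silenced by promoter methylation in several cancers. The beta, epsilon, gamma, eta, theta and zeta proteins, from YWHAB, YWHAE, YWHAG, YWHAH, YWHAQ and YWHAZ, are made in most tissues.

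SFN differed from the others in gene structure. In build hg19 its coding sequence is a single interval on chromosome 1 from 27189704 to 27190447 (ENSG00000175793). The coding intervals of the other genes, merged over transcripts, fell into 2 blocks for YWHAG on chromosome 7 (75958897 to 75988125), 5 each for YWHAB on chromosome 20 (43530175 to 43535076), YWHAH on chromosome 22 (32340720 to 32352776) and YWHAQ on chromosome 2 (9725418 to 9770581) and 7 for YWHAE on chromosome 17 (1248737 to 1303404). GENCODE 29 marks SFN, YWHAG and YWHAH as retrogenes, that is, genes that arose from a reverse-transcribed message. The SFN transcript there is 1 exon of 1320 bases with 248 codons.

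The promoters of SFN and YWHAE are shown because these genes had the lowest and the highest level of the family per kilobase. Each window runs from 250 bases before to 50 bases after the transcript start in RefSeq (build GRCh38.p14), with CpG dinucleotides, the sites of DNA methylation, in capitals. SFN lies at chr1:26862899-26863198 on the plus strand and YWHAE at chr17:1400173-1400472 on the minus strand.
SFN: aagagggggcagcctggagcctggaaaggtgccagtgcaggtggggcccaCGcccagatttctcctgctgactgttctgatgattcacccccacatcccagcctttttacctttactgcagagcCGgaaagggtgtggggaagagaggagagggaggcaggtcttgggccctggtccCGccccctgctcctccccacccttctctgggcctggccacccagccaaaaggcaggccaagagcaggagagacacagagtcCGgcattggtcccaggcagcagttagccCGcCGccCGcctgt
YWHAE: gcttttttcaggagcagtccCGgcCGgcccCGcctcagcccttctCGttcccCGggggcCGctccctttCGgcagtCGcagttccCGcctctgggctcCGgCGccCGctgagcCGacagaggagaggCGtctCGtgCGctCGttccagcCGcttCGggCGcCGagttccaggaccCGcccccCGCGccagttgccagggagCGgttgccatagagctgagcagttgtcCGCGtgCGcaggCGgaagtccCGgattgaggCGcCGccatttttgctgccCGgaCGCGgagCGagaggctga
The SFN window held 7 CpG and the YWHAE window 36. The counts were 29 for YWHAB, 32 for YWHAG, 34 for YWHAQ and 44 for YWHAH. The SFN window thus held the fewest among the 6 genes with an entry. Of 35116 RefSeq promoters of the same length, 36.8% held fewer CpG than SFN and 87.3% held fewer than YWHAE. The GC box letters GGGCGG, counted on both strands, occurred 2 times in the SFN window and 1 to 4 times in the others, and 45.0% of all promoters held them. These counts describe the windows alone, since no methylation was measured. The coding sequence of SFN held 42 CpG, against 13 in YWHAZ and 51 in YWHAG, the lowest and highest of the other 6 genes.

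**Figure D1:**
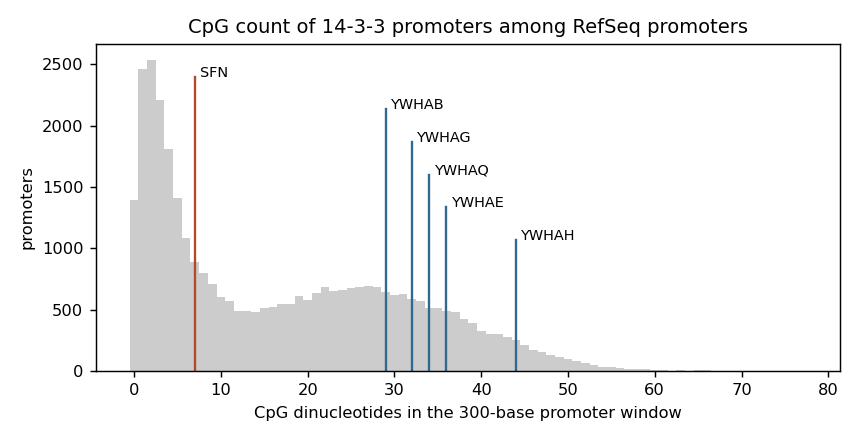
Histogram of the number of CpG dinucleotides in 35116 RefSeq promoter windows of 300 bases, with vertical lines at SFN and at the 5 other 14-3-3 genes with an entry (line height carries no value). SFN stands at 7, below the median of 14, and the other 5 stand between 29 and 44.

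Reads of a gene family can be misplaced where copies are alike, so the coding sequences were compared. SFN shared 64.0% to 71.8% of aligned coding bases with the other members, against 66.9% to 78.9% among those 6. The longest identical stretch of SFN with any member was 27 bases, with YWHAQ, and is shown in capitals with 12 bases on each side (coding bases 625 to 675 of SFN and 619 to 669 of YWHAQ, GENCODE 29).
SFN: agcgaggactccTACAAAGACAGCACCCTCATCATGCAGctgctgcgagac
YWHAQ: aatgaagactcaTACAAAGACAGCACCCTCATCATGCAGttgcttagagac
Among the other 6 genes the longest identical stretch was 39 bases, between YWHAG and YWHAH.

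SFN had the largest log2 ratio in size of the 7 genes. Whole reads per library could be recovered from the printed means, and SFN had 57, 66 and 60 reads in the condition A libraries, against 162, 195 and 132 in condition B. In normalised reads these were 47.1, 64.4 and 78.1 in condition A, against 148.5, 185.6 and 138.8 in condition B. Every library of condition A lay below every library of condition B. Of 13000 rows with a mean of at least 50 and recovered libraries, 34.7% had their libraries apart in this way, in either direction. The recovered means were 63.2 ± 15.5 in condition A and 157.6 ± 24.7 in condition B (SD, n = 3 each). In these bulk samples fewer cells with the message and less of it per cell cannot be told apart.

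The log2 ratio of SFN, condition A over condition B, was -1.32 in the authors' deposited table, which is 2.49-fold higher in condition B. With any 1 library left out it lay between -1.50 and -1.15. Of 13565 rows with a mean of at least 50, 7 had a lower ratio than SFN. SFN was the 1 of the 7 members with an adjusted p under 0.05 in the authors' deposited table. It counted as lower in condition A, and 0 members were called higher. Of all 34675 rows, 2.54% passed the same threshold, 1.57% as lower in condition A, and of the rows with a mean of at least 50, 6.04% passed. A limma fit on recovered normalised reads called SFN too, where 4.59% of 34110 rows were called. SFN was chosen from this contrast, which the limma fit shares, so nothing is read from its place among the ratios or from either call. In the same libraries, in the same order, PRDM11 had 268.0, 272.1 and 322.7 normalised reads in condition A, against 565.5, 515.9 and 544.9 in condition B. The groups did not overlap for PRDM11 either, as for 34.7% of such rows.

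**Figure D2:**
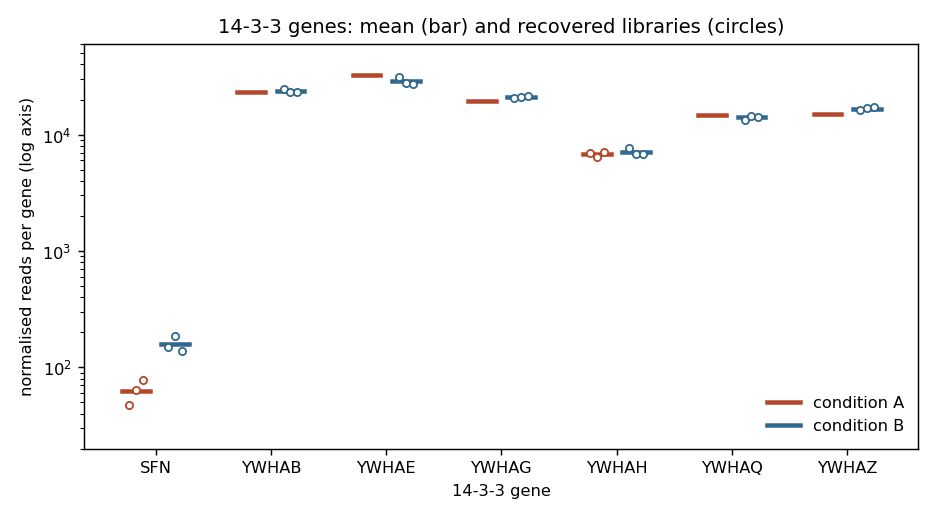
Normalised reads (log axis) of the 7 14-3-3 genes, with condition A left of condition B. Bars are condition means and circles are the 3 libraries, drawn where only 1 whole-number solution existed, in order of falling size factor. The SFN libraries lie at 47.1 to 78.1 in condition A and 138.8 to 185.6 in condition B and do not overlap.

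YWHAH, the eta gene, was the other member whose libraries were recovered in both conditions. It had 6892, 6399 and 7095 normalised reads in condition A, against 7622, 6816 and 6817 in condition B. The groups overlapped, with the highest library of condition A above the lowest ones of condition B. The mean was 6796 ± 358 in condition A, against 7085 ± 465 in condition B (SD, n = 3 each), and the log2 ratio was -0.06 in the authors' deposited table.

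The 5 larger genes had several whole-number solutions in condition A, so only their means are given there. YWHAE, the epsilon gene, whose protein is also known as a binding partner of CDC25 phosphatases, had 32745 normalised reads in condition A, against 28794 in condition B, by the authors' deposited table. This log2 ratio of 0.19 was the highest of the family. Its libraries in condition B held 30962, 28000 and 27421. YWHAZ, the zeta gene (6 coding blocks on chromosome 8, 101932924 to 101961117), a binder of RAF kinases, had 14902 in condition A, against 16702 in condition B, by the authors' deposited table, and a log2 ratio of -0.16. This was the lowest after SFN, and its libraries in condition B held 16139, 16763 and 17204.

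YWHAG, the gamma gene, had 19412 normalised reads in condition A, against 21021 in condition B, by the authors' deposited table, and a log2 ratio of -0.11. Its libraries in condition B held 20488, 21212 and 21361. YWHAQ, the theta gene, known from T cells where it was first studied, had 14856 in condition A, against 14049 in condition B, by the authors' deposited table, and a log2 ratio of 0.08. Its libraries in condition B held 13416, 14500 and 14232. YWHAB, the beta gene, had 23401 in condition A, against 23775 in condition B, by the authors' deposited table, and a log2 ratio of -0.02, and its libraries in condition B held 24614, 23325 and 23387. The adjusted p of these 6 genes was above 0.05 in the authors' deposited table, which does not show that they were equal.

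The 6 genes other than SFN thus spread from -0.16 to 0.19 in log2 ratio, 2 above 0 and 4 below, with a median of -0.04. Their reads summed to 112111 in condition A, against 111426 in condition B, by the authors' deposited table, and a log2 ratio of the sums of 0.01. Adding SFN left that ratio of sums at 0.01.

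**Figure D3:**
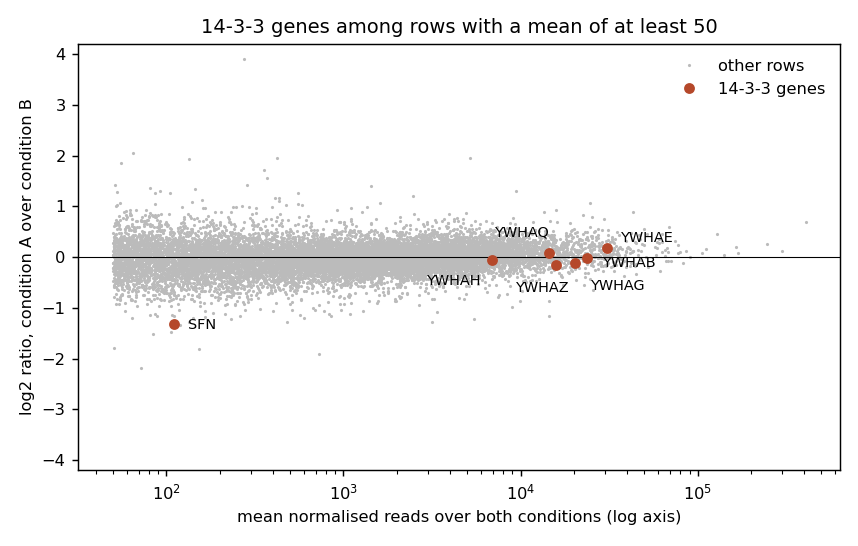
Log2 ratio of condition A over condition B against the mean normalised reads over both conditions (log axis) for the 13565 rows with a mean of at least 50, with the 7 14-3-3 genes as filled circles. SFN stands at -1.32 near the low end of the means, and the other 6 lie between -0.16 and 0.19 at means of 6940 or more.

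Levels of different genes were compared per kilobase of the longest transcript in GENCODE 29, from the means of the authors' deposited table. SFN was lowest in both conditions, with 47.9 normalised reads per kb in condition A and 119.4 in condition B. YWHAE was highest, with 14810 in condition A and 13023 in condition B. The order below it was YWHAQ, YWHAG, YWHAB, YWHAH and YWHAZ in both conditions. YWHAZ, the next above SFN, was 59.3 times the level of SFN in condition A, against 26.6 times in condition B. SFN made up 0.129% of the summed level of the family in condition A and 0.331% in condition B. With the coding length these shares were 0.0581% in condition A and 0.146% in condition B.

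The libraries of condition B show which neighbours in the order were apart. The ranges of YWHAB, 3976 to 4195 normalised reads per kb, and YWHAH, 3627 to 4056, overlapped. The other neighbouring pairs did not overlap, and SFN lay at 105.2 to 140.6, below YWHAZ at 3075 to 3278. The order between the ends depended on the length used. The longest transcript of YWHAB is a retained intron form of 5867 bases, and with its longest protein-coding transcript of 3109 bases YWHAB came directly below YWHAE. Per kilobase of coding sequence YWHAE was again highest and SFN lowest, while YWHAB came second and YWHAH sixth in both conditions.

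**Figure D4:**
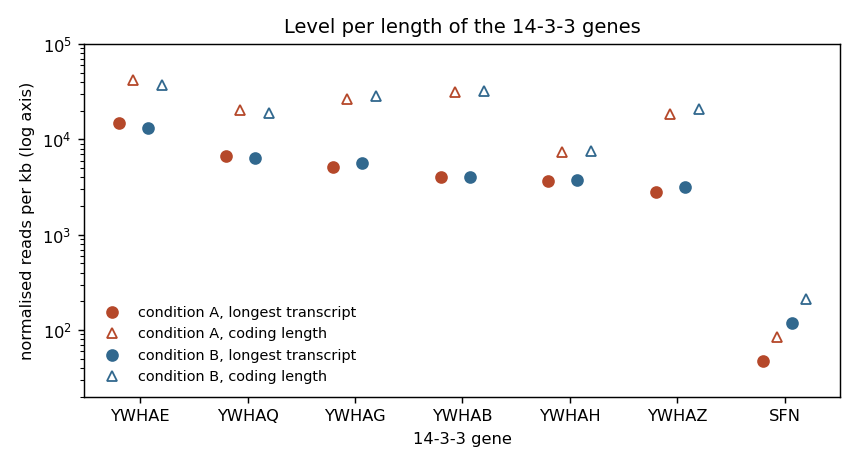
Normalised reads per kb (log axis) of the 14-3-3 genes by the longest transcript (filled circles) or the coding length (open triangles), condition A left of condition B. YWHAE is highest and SFN lowest on both lengths, YWHAG keeps its place between them, and the other 4 genes change places.

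Processed pseudogenes of the YWHA genes were measured too, and reads can be shared between them and their parents. The table held 10 such rows, for copies of YWHAB, YWHAE, YWHAQ and YWHAZ. Together they came to 1742 normalised reads in condition A, against 1779 in condition B, by the authors' deposited table, which was 1.55% of the reads of the 6 YWHA genes in condition A and 1.60% in condition B. The row with the most reads was YWHAZP2, with 626.3 in condition A, against 749.8 in condition B, by the authors' deposited table. Its log2 ratio of -0.26 had the sign of that of YWHAZ. Of the 10 rows, the authors' deposited table gave none an adjusted p under 0.05, while 2.54% of all rows did.

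None of the genes next to SFN was called. Within 50 kb of its coding sequence the table held 5 coding genes. Of these, 0 had an adjusted p under 0.05 in the authors' deposited table. Of all rows 2.54% passed that threshold, and 6.04% of those with a mean of at least 50. A count of 0 among 5 therefore does not set these genes apart. ZDHHC18, a palmitoyltransferase gene and the nearest at 6.99 kb, had 2682 normalised reads in condition A, against 2882 in condition B, by the authors' deposited table (log2 ratio -0.10). GPN2, a GPN-loop GTPase gene at 15.7 kb on the other side, had 2489 in condition A, against 2436 in condition B, by the authors' deposited table (log2 ratio 0.03). GPATCH3, at 26.9 kb, and NUDC, a gene of nuclear migration at 47.2 kb, were at 0.21 and 0.10 in log2 ratio by the authors' deposited table. NR0B2, a nuclear receptor gene, was near 0 in the authors' deposited table, at 1.15 in condition A and 0.623 in condition B.

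The 5 genes most like SFN in level and difference were picked by the distance between their pairs of log2 means, out of 15445 genes and over the 2 condition means. They were ZNF682, a zinc finger gene, CACNA1D, a calcium channel subunit, OPLAH, the 5-oxoprolinase, VIM, the intermediate filament vimentin, and CRIP3, at distances of 0.12, 0.13, 0.18, 0.28 and 0.32. ZNF682 had 68.4 normalised reads in condition A, against 154.0 in condition B, by the authors' deposited table. OPLAH had 55.9 in condition A, against 156.5 in condition B, by the authors' deposited table, the 1 of the 5 with a lower ratio than SFN, at -1.48.

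Known partners of 14-3-3 proteins were described by 6 lists of 45 genes in all, and 5 were higher and 2 lower in condition A in the authors' deposited table, against 0.966% and 1.57% of all rows. Of rows with a mean of at least 50, as 43 of the 45 genes had, 6.04% were called in either direction. The median log2 ratio of the 43 with a mean of at least 50 was 0.19, beside -0.0024 for all 13565 such rows. Above a mean of 1000 the median of all rows was 0.02. Of the 45 genes, 37 had a log2 ratio above 0 and 8 below.

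DDIT4, an inhibitor of mTORC1 signalling, was 1 of the 2 partners called lower. It had 308.4 normalised reads in condition A, against 467.5 in condition B, by the authors' deposited table (DESeq adjusted p = 0.00115, log2 ratio -0.60). TBC1D1, a RAB GTPase activator that AKT and AMPK phosphorylate, was higher, with 23958 in condition A, against 16362 in condition B, by the authors' deposited table (DESeq adjusted p = 0.00026, log2 ratio 0.55).

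The other partners called higher were MAP3K5, a stress kinase, IRS2, an insulin receptor adaptor, and HDAC5 and HDAC9, deacetylases of class IIa. Their log2 ratios were 0.40, 0.46, 0.48 and 0.39 in the authors' deposited table. HDAC4 and HDAC7, also of class IIa, were not called there, with log2 ratios of -0.31 and 0.09. By the authors' deposited table none of the 6 cell cycle partners was called, where 6.04% of rows with a mean of at least 50 were called. WEE1, the kinase that holds CDK1 inactive, had the lowest log2 ratio of these 6 there, at -0.34. The phosphatase genes CDC25A and CDC25B stood at 0.29 and 0.31, and the median of the 6 was 0.17. None of the 4 RAF and scaffold genes was called either, and KSR1, a scaffold of that pathway, stood at 0.47 in log2 ratio by the authors' deposited table.

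The kinases that create 14-3-3 binding sites were represented by 16 genes. Of these, 1 was called higher and 0 lower in condition A, where 6.04% of rows with a mean of at least 50 were called. PIM1, a serine and threonine kinase, had 7887 normalised reads in condition A, against 4826 in condition B, by the authors' deposited table (DESeq adjusted p = 3.74e-07, log2 ratio 0.71). AKT1 and AKT2, at -0.17 and -0.11 in log2 ratio by the authors' deposited table, were not called. The median of the 15 kinase genes with a mean of at least 50 was 0.17.

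Genes known to control SFN were not called in the authors' deposited table, 0 of 9 in either direction, where 6.04% of rows with a mean of at least 50 were called. TP63, whose protein in keratinocytes represses SFN, had 148.2 normalised reads in condition A, against 93.4 in condition B, by the authors' deposited table (DESeq adjusted p = 0.109, log2 ratio 0.67). TRIM25, the ubiquitin ligase of 14-3-3 sigma, had a log2 ratio of 0.17, and the DNA methyltransferase genes DNMT1, DNMT3A and DNMT3B stood at 0.12, -0.38 and -0.19 by the authors' deposited table.

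**Figure D5:**
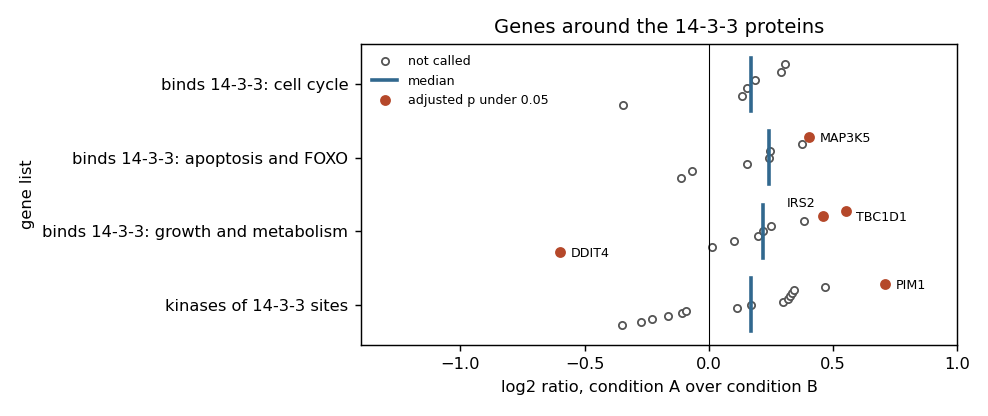
Log2 ratio of condition A over condition B for the genes with a mean of at least 50 in 3 lists of 14-3-3 partners and the list of kinases. Filled circles are genes with an adjusted p under 0.05 in the authors' deposited table, open circles the others and vertical bars the list medians. DDIT4 at -0.60 and PIM1 at 0.71 stand furthest from 0 on their sides.

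Since SFN is an epithelial gene, epithelial and B cell markers were set beside it. Of 13 epithelial markers in the table, 0 were called, where 2.54% of all rows were. Means were under 50 in both conditions for 10 of the 13, so the count of calls says little. CDH1, E-cadherin, had 0.276 normalised reads in condition A, and was listed at 0 in condition B of the authors' deposited table. KRT5, a basal keratin, had 0.551 in condition A, against 0.701 in condition B, by the authors' deposited table. EPCAM, an epithelial adhesion gene, had 1285 in condition A, against 1242 in condition B, by the authors' deposited table. The 13 markers summed to 1988 in condition A and 2018 in condition B. Of 7 B cell markers, 1 was called higher and 1 lower in condition A, where 6.04% of rows with a mean of at least 50 were called. PAX5, the B lineage factor, had 35652 normalised reads in condition A, against 35450 in condition B, by the authors' deposited table. CD79B, a chain of the B cell receptor, was the higher one (log2 ratio 0.42 there), and the lower one is not reported here by name.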

How the data were processed

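RNA from U2932 cells was sequenced in 3 knockdown and 3 scrambled control samples. The submitters' processing notes name build hg19 and the tools DESeq 1.14.0, HTSeq 0.5.4p5 and STAR. What each did, and whether counting used strand, is not stated, so reads of overlapping or antisense genes may be mixed.

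The deposited table gives, for 34675 genes, condition means as a signal in normalised reads, per the file headers. It also gives the authors' fold (condition B over A), its log2 value, and p-values with their Benjamini-Hochberg adjustment. Log2 ratios are printed with the sign turned, as A over B. A deposited track on hg19 with a display score per coding interval was used only for its intervals. The table had 0 columns of values per sample.

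Each mean is a weighted sum of 3 whole numbers, so reads per library were searched for up to a mean of 40000. Above 1500, each library was limited to 0.7 to 1.4 times the mean. Exactly 1 solution was found for 98.6% of 34609 means of condition A, against 100% of 34619 of condition B. Condition A libraries then held 33664056, 28463948 and 21791172 reads and condition B libraries 41762295, 39317913 and 35350927, which covers 63.9% and 89.9% of the summed means. Libraries are numbered by falling size factor (1.21, 1.03 and 0.768 for condition A, against 1.09, 1.05 and 0.951 for condition B), and these numbers are not the labels' replicates. The search and the limma fit were tested on simulated data. The simulated libraries varied little around their mean, so that test cannot show whether the limits of 0.7 to 1.4 miss true solutions. For 2960 rows of condition A searched without these limits, the usual range of libraries began at 0.668 times the mean, below the lower limit.

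The members and lists were chosen with earlier results of these data known. Named genes are the members, called list genes, genes within 50 kb of SFN, YWHA pseudogenes, the 5 genes nearest to SFN and PRDM11. Other list genes were named after their values were seen. Some list genes, and 1 list, are not reported here by name, though the genes stay in their lists' counts. Calls are the authors' adjusted p under 0.05. The alternatives tried were pseudocounts, 2 rescalings, left-out libraries, other thresholds, a limma fit and other gene lengths. That fit used limma 3.58.1 in R 4.3.3 on log2 (recovered normalised reads + 0.5). Symbols came from the table, and gene types and lengths from GENCODE 29, which matched 32769 identifiers. The limma fit called 1565 of 34110 genes.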

Additional observations from a re-analysis of the deposited data

How the results depend on the processing

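The log2 ratio of SFN stayed below -1.1 under every alternative tried, from -1.50 without library 3 of condition A to -1.15 without library 1 of that condition. It was -1.20 with 10 normalised reads added to both means and -1.38 with the means scaled to equal sums. That scaling moved all genes by -0.07, which exceeded the spread between libraries for 4 members. Their ratios became -0.089 for YWHAB, -0.18 for YWHAG, 0.014 for YWHAQ and -0.23 for YWHAZ. The spread was that of condition B alone for these 4 and YWHAE, whose condition A libraries were not recovered. Setting the median of rows with a mean of at least 100 to 0 moved no member beyond that spread. SFN was the 1 member called at an adjusted p under 0.1 or 0.01. It was also the 1 called with adjustment over rows with a mean of at least 10, and by limma. The limma fit could test 2 of the 7. Of all 34675 rows, 1200 were called at 0.1 and 505 at 0.01. With adjustment over rows with a mean of at least 10, 1177 of 17613 were called, and limma called 4.59% of 34110. SFN was chosen from this contrast, so nothing is read from these calls.

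The order of the family by level per kilobase depended on the length. With the coding length 3 of 7 genes kept their place in each condition, and with the longest protein-coding transcript, an alternative added after the data were seen, 4 did. With the coding length SFN made up 0.0581% of the summed level in condition A and 0.146% in condition B. SFN rested on 57 to 66 reads per library in condition A. No paired analysis was possible because the table has no columns per sample and the recovered libraries carry no replicate number.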
